A study of Homo sapiens with 30 samples.

Results

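Prostate luminal identity genes were followed by name through the RNA-seq, chromatin accessibility, H3K27me3 and ERG binding data of a study of ERG and AKT in prostate cells. They are 7 genes of the 26255 in the RNA table, chosen by name with earlier results of these data already known. The members are the transcription factors FOXA1, GATA2 and GATA3, the membrane proteins TMPRSS2, FOLH1 and CD24, and the secreted phosphatase ACPP (named ACP3 in current annotation). RWPE1 is an established line of normal prostate epithelial cells. The 4 lines with RNA-seq were retrovirally transduced and drug-selected cells carrying both empty vectors (RWPE1-Vector), ERG isoform 1 in pQCXIH with empty pBabe-puro (RWPE1-ERG), myristoylated AKT in pBabe-puro with empty pQCXIH (RWPE1-mAKT), or both proteins (RWPE1-ERG+mAKT). RWPE1-ERG S96E cells, used for H3K27me3, carried ERG with a glutamate in place of serine at residue 96, the site that ERK phosphorylates. VCaP is a prostate cancer line that expresses ERG from a TMPRSS2/ERG rearrangement, and its ERG ChIP came from cells grown with serum and given DMSO on days 1, 3 and 6. RWPE1 cells grew in keratinocyte serum-free medium with EGF and bovine pituitary extract, under puromycin and hygromycin. The H3K27me3 libraries of RWPE1-Vector, of RWPE1-ERG and of RWPE1-ERG S96E are labelled with pQCXIH alone, without pBabe-puro, so these lines are not labelled as identical to those of the RNA-seq. Any link between an H3K27me3 list and an RNA value rests on the shared name. RWPE1-ERG S96E has no RNA-seq in these data, so its list has no RNA value from its own line.

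The prostate gland is lined by an inner luminal layer, which secretes, over an outer basal layer. In luminal cells FOXA1 and GATA2 are pioneer factors that open chromatin, and TMPRSS2 (an androgen-induced serine protease), FOLH1 (prostate-specific membrane antigen, which androgen lowers) and ACPP (prostatic acid phosphatase, which is secreted) are classical products of luminal cells. GATA3 is a luminal factor of several epithelia, and CD24 is a surface glycoprotein found on many epithelial cells. In a TMPRSS2/ERG rearrangement the androgen-responsive promoter of TMPRSS2 is joined to ERG, so TMPRSS2 is of interest here both as a luminal gene and as the partner in the fusion.

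The members split into an expressed group and a group at or near the floor of the table (see the plot of FPKM by line). FOXA1, GATA2, GATA3 and CD24 were at 1 FPKM (fragments per kilobase of transcript, scaled to library size) or above in all 4 lines, while ACPP, FOLH1 and TMPRSS2 were below 1 FPKM in all 4. Each RNA value was pooled by Cuffdiff over 3 libraries, so every line has 1 value, no spread between libraries can be given and no difference between lines was tested. In these bulk libraries, fewer cells expressing a gene and less RNA per cell cannot be told apart. ERG was at 0.264 FPKM in RWPE1-Vector, 358 in RWPE1-ERG, 0.435 in RWPE1-mAKT and 328 in RWPE1-ERG+mAKT, and AKT1 was at 58.7, 64.2, 156 and 281 in the same order, so each was higher in the lines labelled with it than in the others. AKT1 was 1.80-fold higher in RWPE1-ERG+mAKT than in RWPE1-mAKT, and the part of this in comparisons that involve these lines was not tested. Each ChIP-seq or ATAC-seq list came from 1 library. A list attached to the VCaP input and another attached to the LY294002-treated VCaP ERG ChIP hold regions that their labels do not describe, and they were kept out of the results.

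**Figure D1:**
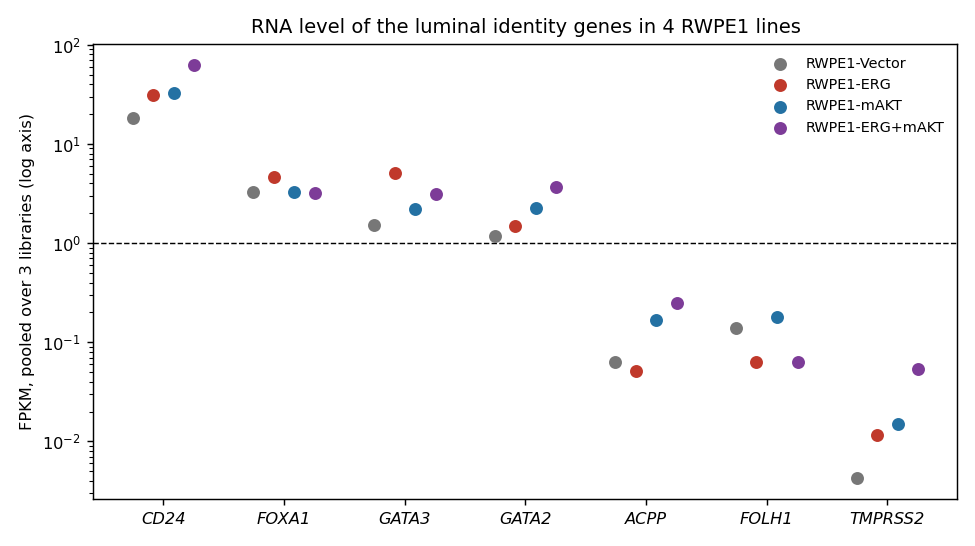
FPKM of the 7 members (log axis) in the vector, ERG, mAKT and ERG+mAKT lines, 1 point a line, each pooled over 3 libraries; the dashed line marks 1 FPKM. CD24 stood highest, at 18.3 to 63.0 FPKM, FOXA1, GATA3 and GATA2 lay between 1.19 and 5.10 FPKM, and ACPP, FOLH1 and TMPRSS2 stayed at 0.251 FPKM or below.

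Some sequences are shown first, because the results below turn on them. The first set holds the start sites of members whose chromatin and RNA are compared, as RefSeq promoter windows of 300 bases (GRCh38.p14) that were found letter for letter in GRCh37, the build of the peak lists. Of the members, 5 have RefSeq windows in the table used (FOXA1, GATA2, GATA3, ACPP and CD24), and those of the first 4 were found in GRCh37. Capitals mark matches, on either strand, to short sets of letters. For ETS factors, the family of ERG, these are CCGGAA or else CAGGAA. For GATA factors they are AGATAA or else TGATAA. For forkhead factors, the family of FOXA1, they are TGTTTAC or else TGTTTGC or else TATTTAC. For AP-1 they are TGANTCA. No matches of different sets overlap in these windows, and each window is written 5′ to 3′ on the strand of its gene.
FOXA1, minus strand, GRCh37 chr14:38064405-38064704: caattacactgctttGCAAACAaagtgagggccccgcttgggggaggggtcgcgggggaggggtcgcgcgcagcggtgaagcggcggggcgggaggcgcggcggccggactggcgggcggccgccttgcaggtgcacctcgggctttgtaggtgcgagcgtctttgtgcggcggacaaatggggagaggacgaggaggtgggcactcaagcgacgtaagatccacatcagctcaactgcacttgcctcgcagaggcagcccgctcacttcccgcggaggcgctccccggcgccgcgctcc
GATA3, plus strand, GRCh37 chr10:8096401-8096700: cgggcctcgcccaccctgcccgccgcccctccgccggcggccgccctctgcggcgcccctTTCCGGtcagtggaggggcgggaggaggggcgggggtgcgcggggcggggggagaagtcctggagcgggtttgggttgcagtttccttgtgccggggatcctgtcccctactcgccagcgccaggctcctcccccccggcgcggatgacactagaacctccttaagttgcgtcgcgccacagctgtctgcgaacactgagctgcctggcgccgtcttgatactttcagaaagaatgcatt
ACPP, plus strand, GRCh37 chr3:132036001-132036300: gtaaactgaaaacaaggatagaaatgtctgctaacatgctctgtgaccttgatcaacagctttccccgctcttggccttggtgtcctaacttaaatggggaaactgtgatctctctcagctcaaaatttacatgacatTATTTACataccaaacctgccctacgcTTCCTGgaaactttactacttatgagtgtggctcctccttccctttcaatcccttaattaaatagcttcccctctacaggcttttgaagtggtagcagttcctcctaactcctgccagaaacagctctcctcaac

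The FOXA1 window holds 1 forkhead match, the printed GATA3 window 1 ETS match, and the ACPP window 1 forkhead and 1 ETS match. Other RefSeq windows of GATA3, and those of GATA2, were also found but not printed, and their matches differ. Of 35116 RefSeq promoter windows of this length, 41.4% hold an ETS match, 16.3% a GATA match, 9.57% a forkhead match and 7.71% an AP-1 match. None of the 3 printed windows holds a GATA or AP-1 match. A match of letters is a description of the window only.

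The second set holds the ERG-bound sites of VCaP cells near members, 4 in all, as the peak summit with 100 bases to either side on the plus strand of GRCh37. Capitals mark the ETS letters alone, which 32.2% of the 5919 summit windows of the VCaP list hold.
TMPRSS2, 22.2 kb downstream of the start, chr21:42857801-42858001: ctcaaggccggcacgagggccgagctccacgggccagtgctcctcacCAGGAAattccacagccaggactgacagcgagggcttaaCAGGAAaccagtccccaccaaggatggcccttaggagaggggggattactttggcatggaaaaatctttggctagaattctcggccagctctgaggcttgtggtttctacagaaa
TMPRSS2, 1.42 kb downstream of the start, chr21:42878566-42878766: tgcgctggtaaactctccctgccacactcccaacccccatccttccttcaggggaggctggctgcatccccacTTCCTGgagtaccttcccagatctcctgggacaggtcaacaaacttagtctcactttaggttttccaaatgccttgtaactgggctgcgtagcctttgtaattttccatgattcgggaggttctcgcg
TMPRSS2, at −18.5 kb, upstream of the start, chr21:42898508-42898708: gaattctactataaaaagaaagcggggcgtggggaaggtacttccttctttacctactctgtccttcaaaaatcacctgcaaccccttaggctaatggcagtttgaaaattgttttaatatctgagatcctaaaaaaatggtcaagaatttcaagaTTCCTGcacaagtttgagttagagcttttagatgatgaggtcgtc
FOLH1, 12.9 kb downstream of the start, chr11:49217185-49217385: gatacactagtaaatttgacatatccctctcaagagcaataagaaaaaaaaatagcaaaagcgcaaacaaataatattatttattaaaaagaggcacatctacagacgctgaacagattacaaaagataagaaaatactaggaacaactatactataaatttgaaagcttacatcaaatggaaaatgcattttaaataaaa

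All 3 TMPRSS2 windows hold ETS letters, the first of them at 2 places and the others at 1 each. The FOLH1 window holds none, and has 1 GATA match and 1 forkhead match, which 20.7% and 15.5% of the summit windows of the VCaP list hold.

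The third sequence bears on how CD24 was measured. RefSeq places CD24 on chromosome 6 (GRCh38.p14), whereas the RNA table places it at chrY:21034386-21438350, a locus of 403965 bases, and the annotation of GRCh37 holds only the copy CD24P4, at chrY:21154353-21154595. Below, the RefSeq promoter window of GRCh38.p14 chr6:106975416-106975715 (minus strand) has in capitals the bases that lie in runs of 30 or more matching the chromosome Y copy exactly.
CD24: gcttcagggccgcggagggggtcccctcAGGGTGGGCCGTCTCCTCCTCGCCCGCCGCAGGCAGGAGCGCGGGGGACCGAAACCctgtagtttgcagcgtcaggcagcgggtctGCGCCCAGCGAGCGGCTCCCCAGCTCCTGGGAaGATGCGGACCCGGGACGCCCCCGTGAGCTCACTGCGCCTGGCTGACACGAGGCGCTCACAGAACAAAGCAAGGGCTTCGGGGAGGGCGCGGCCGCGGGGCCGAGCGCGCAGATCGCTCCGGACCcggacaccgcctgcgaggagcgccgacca

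In this window 212 of 300 bases lie in such runs, at chrY:21154780-21155022. Of its 10 consecutive pieces of 30 bases, 5 were found on chromosome Y of GRCh37, 0 on chromosome 6 and 0 on any other chromosome of the reference. The other 2 RefSeq windows of CD24 matched chromosome Y over 90 and 0 bases. By the locus in the RNA table and the annotation used for the regions, the values of CD24 are values assigned to the chromosome Y locus. The share of those reads that came from a copy outside that locus was not tested. The main counts of members with a region within 20 kb are also given without CD24, as is the 2-fold count that it changes.

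FOXA1, a forkhead pioneer factor at chr14:38058757-38065264 (minus strand; GRCh37, as all positions from here), had the steadiest RNA of the 4 members at 1 FPKM or above. Its FPKM was 3.24 in RWPE1-Vector, 4.66 in RWPE1-ERG, 3.28 in RWPE1-mAKT and 3.19 in RWPE1-ERG+mAKT, so RWPE1-ERG was the one line that stood apart, 1.44-fold above RWPE1-Vector. On the log2(FPKM + 1) scale, used for all comparisons between lines because it damps the ratios of low genes, FOXA1 differed by 0.42 for RWPE1-ERG over RWPE1-Vector and by −0.43 for RWPE1-ERG+mAKT over RWPE1-ERG. The first of these ratios was above 88.7% of the 12670 genes at 1 FPKM or above in any line. Its relatives FOXA2 and FOXA3 had their own levels. FOXA2 was at 6.04, 5.25, 7.17 and 6.45 FPKM in the vector, ERG, mAKT and ERG+mAKT lines, above FOXA1 in every line, and FOXA3 was at 0.0352 FPKM or below.

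GATA2, which acts beside FOXA1 in luminal cells and lies at chr3:128198270-128212044 (minus strand), was lowest in RWPE1-Vector and highest in RWPE1-ERG+mAKT. Its FPKM was 1.19 in RWPE1-Vector, 1.48 in RWPE1-ERG, 2.26 in RWPE1-mAKT and 3.68 in RWPE1-ERG+mAKT. Both lines with mAKT were above both lines without it. The log2 ratio was 0.57 for RWPE1-mAKT over RWPE1-Vector, 0.92 for RWPE1-ERG+mAKT over RWPE1-ERG and 1.10 for RWPE1-ERG+mAKT over RWPE1-Vector, and these stood above 97.8%, 97.7% and 97.4% of the genes tested.

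GATA3, at chr10:8087341-8117161 (plus strand), had another order, with its highest level in RWPE1-ERG. Its FPKM was 1.52 in RWPE1-Vector, 5.10 in RWPE1-ERG, 2.21 in RWPE1-mAKT and 3.12 in RWPE1-ERG+mAKT. Both lines with ERG were above both lines without it. The log2 ratio was 1.27 for RWPE1-ERG over RWPE1-Vector, above 97.6% of the genes tested, but 0.36 for RWPE1-ERG+mAKT over RWPE1-mAKT. Adding mAKT went with a ratio of 0.35 in cells without ERG and of −0.56 in cells with ERG. The difference between the ERG ratio with and without mAKT was −0.91 for GATA3, and 5.10% of the genes tested had a larger one in size, with no error available for either. Among the other GATA factors, GATA6 was at 4.84, 6.23, 2.77 and 3.36 FPKM in the vector, ERG, mAKT and ERG+mAKT lines, while GATA1, GATA4 and GATA5 were at 0.00657 FPKM or below in every line.

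CD24, the surface glycoprotein, was the most abundant member in each line. It was at 18.3 FPKM in RWPE1-Vector, 31.1 in RWPE1-ERG, 32.6 in RWPE1-mAKT and 63.0 in RWPE1-ERG+mAKT. The lines with 1 transgene lay close to each other, between the vector line and the line with both. The log2 ratio was 0.73 for ERG and 0.80 for mAKT over RWPE1-Vector, and 1.73 for both together, above 98.7% of the genes tested. The difference between the ERG ratio with and without mAKT was 0.19, and 54.7% of the genes tested had a larger one in size, so on this scale the value of CD24 with both transgenes was near the sum of the separate ratios. The lines with mAKT were unequal in AKT1, at 156 FPKM in RWPE1-mAKT and 281 in RWPE1-ERG+mAKT.

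The luminal products were close to zero. ACPP lies at chr3:132036213-132087146 (plus strand), FOLH1 at chr11:49166644-49230190 (minus strand) and TMPRSS2 at chr21:42836227-42903043 (minus strand). ACPP was at 0.0639 FPKM in RWPE1-Vector, 0.0512 in RWPE1-ERG, 0.169 in RWPE1-mAKT and 0.251 in RWPE1-ERG+mAKT, with both mAKT lines above the others. FOLH1 was at 0.140, 0.0634, 0.180 and 0.0637 FPKM in the same order, with both ERG lines below the others. TMPRSS2 was at 0.00426, 0.0115, 0.0149 and 0.0536 FPKM, highest in RWPE1-ERG+mAKT and lowest in RWPE1-Vector. The RNA table gives no read counts, so the number of fragments behind these values is unknown, and ratios between values this low are not read as differences. FOLH1B, a near-identical copy of FOLH1 on the same chromosome, was listed at 0 in every line, and reads of the pair may not have been told apart.

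The members past 2-fold on the log2(FPKM + 1) scale were counted beside the same share over all genes tested. The 3 members below 1 FPKM are in the counts of 7 but not among the genes tested. In RWPE1-mAKT over RWPE1-Vector 0 of 7 members were 2-fold higher, where 1.14% of the 12670 genes tested were. In RWPE1-ERG over RWPE1-Vector the count was 1 (GATA3), with a background of 3.58%. The count was 0 in RWPE1-ERG+mAKT over RWPE1-ERG (background 2.02%) and 0 in RWPE1-ERG+mAKT over RWPE1-mAKT (background 2.03%). It was 2 in RWPE1-ERG+mAKT over RWPE1-Vector (GATA2 and CD24, background 2.92%), and 1 without CD24. No member was 2-fold lower in any of the 5 comparisons, where 0.813%, 0.971%, 2.47%, 0.868% and 1.07% of the genes tested were, in the same order. In RWPE1-ERG+mAKT over RWPE1-ERG, CD24 (0.99) and GATA2 (0.92) lay just below the limit, and without a pseudocount both passed it. The median log2 ratio of the 4 members that could be compared was 0.46, 0.57, 0.24, 0.44 and 0.90 in the 5 comparisons in the order above, beside medians of 0.02, −0.01, −0.04, −0.07 and −0.06 over all genes tested. The 5 comparisons share lines, so their values are not independent of each other.

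**Figure D2:**
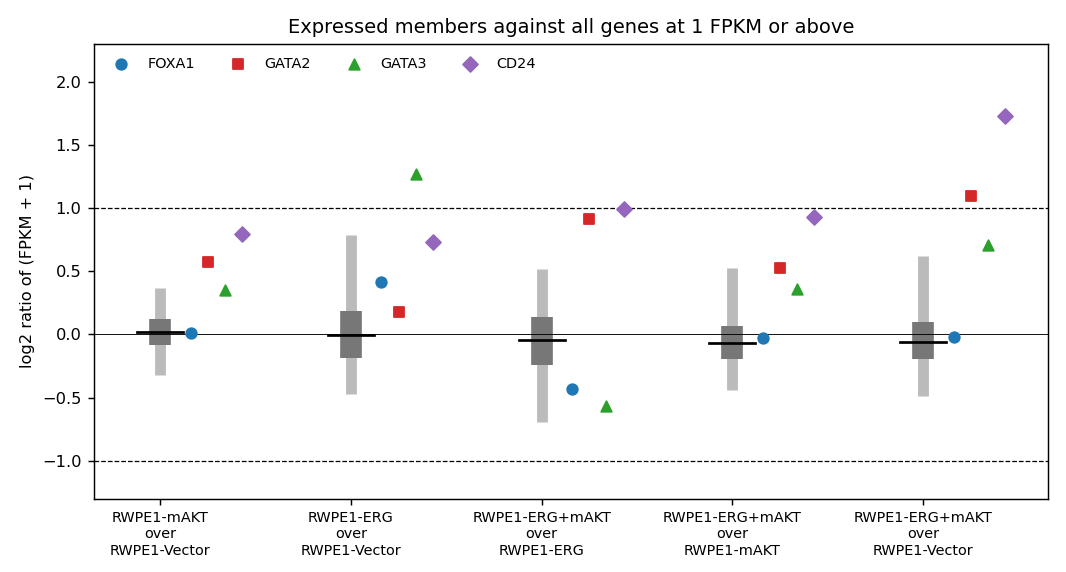
Log2 ratio of (FPKM + 1) for FOXA1, GATA2, GATA3 and CD24 in the 5 comparisons (symbols), beside the 5th to 95th percentile (light bar), the quartiles (dark bar) and the median (line) of the 12670 genes at 1 FPKM or above; dashed lines mark 2-fold. GATA3 passed the 2-fold line in RWPE1-ERG over RWPE1-Vector (1.27), and GATA2 (1.10) and CD24 (1.73) in RWPE1-ERG+mAKT over RWPE1-Vector, while FOXA1 stayed between −0.43 and 0.42.

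The genes with the profile nearest to each expressed member over the 4 lines were found by the root mean square difference of the centred log2(FPKM + 1) values. For FOXA1 they were LINC00342 (0.01), SLC12A4 (0.01) and SH3BP5L (0.02), but 854 genes lay within 0.1 of this flat profile. For GATA2 they were TNNI2 (0.03), SLC6A11 (0.04) and LOC100130899 (0.06), with 16 genes within 0.1. For GATA3 they were LINC01186 (0.01), FADS3 (0.04) and RNU11 (0.05), with 13 genes within 0.1. FADS3, for example, was at 40.6, 106, 52.0 and 67.3 FPKM in the vector, ERG, mAKT and ERG+mAKT lines, the order that GATA3 had. CD24 had the least common profile, with 1 gene within 0.1, VGLL1 (0.07), followed by RHOV (0.11) and MSLN (0.13). VGLL1 was at 0.406, 1.19, 1.39 and 3.98 FPKM in the same order of lines. Likeness over 4 values is a description and nothing more.

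The rest of the luminal programme was read from lists of marker genes. Of 25 luminal secretory and androgen-response genes, 13 were at 1 FPKM or above in any line. KLK2, KLK3 (prostate-specific antigen) and TARP were listed at 0 in all 4 lines. They are named because of these values, and do not stand for the list as a whole. Of the 13 genes, 2 were 2-fold higher in RWPE1-ERG over RWPE1-Vector, KRT8 (log2 ratio 1.51) and KRT18 (1.17), the keratins of simple epithelia. KRT8 was at 622, 1769, 671 and 921 FPKM in the vector, ERG, mAKT and ERG+mAKT lines, highest in RWPE1-ERG as GATA3 was. In RWPE1-ERG+mAKT over RWPE1-ERG 2 of the 13 were 2-fold lower, PMEPA1 (−1.23) and RAB3B (−1.09). The median of the 13 lay between −0.12 and 0.06 in the 5 comparisons.

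Luminal progenitor markers were mostly higher in RWPE1-ERG+mAKT than in RWPE1-Vector. Of 12 such genes, 6 were at 1 FPKM or above, and 5 of these were 2-fold higher in RWPE1-ERG+mAKT over RWPE1-Vector, among them KRT13 (4.87), KRT4 (1.45), PSCA (1.22) and CLDN4 (1.01). KRT13 was at 4.10 FPKM in RWPE1-Vector, 9.76 in RWPE1-ERG, 111 in RWPE1-mAKT and 148 in RWPE1-ERG+mAKT. KRT7 was the exception among the 6, at −0.21. KRT4 and KRT13 are also keratins of stratified mucosa. Of 8 squamous markers, 3 (SPRR1A, SPRR1B and IVL) were 2-fold higher in the same comparison, at 4.12, 3.34 and 2.11, and the summed FPKM of the squamous list was 26.0, 19.6, 91.6 and 134 in the vector, ERG, mAKT and ERG+mAKT lines. The squamous sums were highest in the lines with mAKT, as GATA2 was. The part of these cell states in the values of GATA2 and CD24 was not tested.

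All 10 basal markers were at 1 FPKM or above, so the lines carry basal keratins beside simple ones. KRT5 was at 3126, 1170, 3642 and 3519 FPKM and KRT14 at 2936, 699.5, 2527 and 1185 FPKM in the vector, ERG, mAKT and ERG+mAKT lines, both lowest in RWPE1-ERG. The line with the highest GATA3, FOXA1 and KRT8 was thus the line with the lowest KRT5 and KRT14, but the basal list was mixed. In RWPE1-ERG over RWPE1-Vector 2 of the 10 basal markers were 2-fold lower (KRT5 and KRT14). KRT15, another basal keratin, was 2-fold higher (log2 ratio 1.24), and LAMB3 was at 0.94. KRT15 was at 33.3 FPKM in RWPE1-Vector, 80.3 in RWPE1-ERG and 280 in RWPE1-ERG+mAKT. Of 7 mesenchymal markers 5 were at 1 FPKM or above, and 3 of these (FN1, CDH2 and VIM) were 2-fold lower in RWPE1-ERG+mAKT over RWPE1-Vector, at −1.77, −1.28 and −1.35. The summed FPKM of the mesenchymal list was 898, 1353, 480 and 352 in the 4 lines. The 6 neuroendocrine markers were below 1 FPKM in all lines.

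Chromatin accessibility was read from ATAC-seq, which marks open chromatin, in RWPE1-ERG, in RWPE1-mAKT and in RWPE1-ERG+mAKT; a list for the vector line was not analysed here. The lists hold 63354, 57999 and 42081 regions. Within 20 kb of the gene, 7 of 7 members had an ATAC region in RWPE1-ERG, where 87.7% of the genes of the table did, 7 in RWPE1-mAKT (86.6%) and 5 in RWPE1-ERG+mAKT (81.9%). FOLH1 and CD24 were the members without one. Without CD24 the counts were 6, 6 and 5 of 6. With equal numbers of regions taken from each list, the counts were 4, 6 and 5 of 7. TMPRSS2, FOLH1 and CD24 were then without a region in RWPE1-ERG, and CD24 in RWPE1-mAKT. The regions formed 20 separate sites, of which 7 were in all 3 lists, 4 in 2 and 9 in 1.

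Among the members, the strongest open region at a transcript start belonged to a gene with little RNA. ACPP, at 0.251 FPKM or below, had a region at its start whose fold enrichment was 10.7 in RWPE1-ERG, 7.095 in RWPE1-mAKT and 9.23 in RWPE1-ERG+mAKT, and this region covers 89.3%, 100% and 55.3% of the promoter window printed above. Of 7182 protein-coding genes below 1 FPKM in all lines, 18.9% had a region within 1 kb of the canonical start in all 3 lists, against 89.1% of 10714 genes at 1 FPKM or above. Taking each list alone, 2103, 1950 and 1490 genes of low RNA had a region there in RWPE1-ERG, in RWPE1-mAKT and in RWPE1-ERG+mAKT. ACPP was above 93.6%, 79.4% and 94.7% of them. A site downstream of the gene, at chr3:132095450-132096144, was also in all 3 lists, with fold enrichments of 10.1, 9.32 and 6.67.

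TMPRSS2 and FOLH1, the other members with little RNA, also had regions at their starts. The TMPRSS2 start had a region within 1 kb in all 3 lists, with fold enrichments of 4.10, 3.58 and 3.43 in RWPE1-ERG, in RWPE1-mAKT and in RWPE1-ERG+mAKT, which were above 19.6%, 17.6% and 8.26% of the genes of low RNA with a region. The FOLH1 start was open in RWPE1-ERG (5.05) and RWPE1-mAKT (5.32) and had no region in RWPE1-ERG+mAKT, where the nearest lay 218 kb from the gene.

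The start regions of the expressed factors lay low or midway among expressed genes with a region. FOXA1 was above 6.39%, 19.3% and 14.7% of them in RWPE1-ERG, in RWPE1-mAKT and in RWPE1-ERG+mAKT, and GATA3 above 34.8%, 14.9% and 50.6%. At the GATA3 start the strongest region had a fold enrichment of 6.51 in RWPE1-ERG, 4.07 in RWPE1-mAKT and 6.32 in RWPE1-ERG+mAKT. In RWPE1-mAKT this region was 2638 bases wide and covered the printed GATA3 window. In the lines with ERG it was narrower, at 715 and 466 bases, and ended upstream of that window, over an earlier transcript start. These fold enrichments are thus of regions of unlike width, and the part of width in them was not tested. For FOXA1 the values were 3.91, 4.37 and 4.24, and a single region of 1956 bases in RWPE1-ERG covered the printed window, which lay between separate regions in the other lists. FOXA1 had its strongest site downstream of the gene, at chr14:38049312-38049799, with fold enrichments of 10.9, 6.17 and 8.47. GATA2 had a region of 1989 to 2455 bases over the start of its shorter transcripts, inside GATA2 and GATA2-AS1, with 4.48, 3.67 and 3.36, and none at its longest transcript. CD24 had a region at the chromosome Y copy in RWPE1-ERG (5.39, chrY:21154625-21155026) and RWPE1-mAKT (3.69). The first of these holds all of the matched bases of the printed window and the other a part of them. There was none in RWPE1-ERG+mAKT, which has the shortest list. With equal numbers of regions taken from each list, CD24 had no region in any of them.

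**Figure D3:**
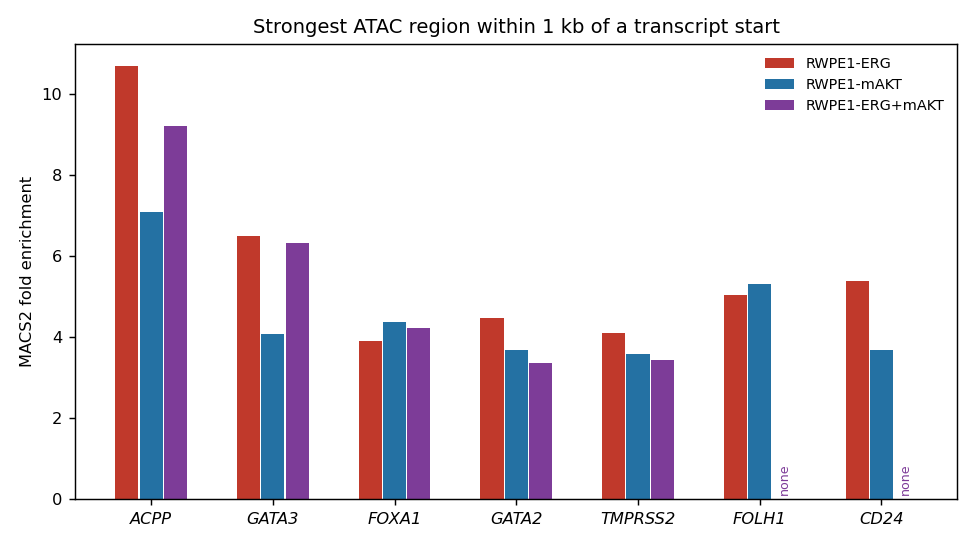
MACS2 fold enrichment (axis from 0) of the strongest ATAC region within 1 kb of any annotated transcript start of each member, 1 library a line. ACPP had the strongest region in each line (10.7, 7.095 and 9.23), and FOLH1 and CD24 had none in RWPE1-ERG+mAKT.

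H3K27me3, the mark that Polycomb places at silenced genes, was read from broad regions in RWPE1-Vector, in RWPE1-ERG and in RWPE1-ERG S96E. These lists were called loosely. They hold 492265, 228233 and 252784 regions, of which 29, 39 and 3413 passed a q-value limit of 0.01, and the ChIP libraries had 19444504, 16513053 and 26454542 reads. Presence of a region near a gene therefore says little, since 96.5%, 71.2% and 75.5% of the genes of the table had one within 20 kb. Of the 7 members 6, 7 and 7 had one, and without CD24 the counts were 6, 6 and 6. The share of each locus covered, the fold enrichment and the q-value are given in its place.

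TMPRSS2 carried the mark over its start in RWPE1-ERG S96E, while in RWPE1-Vector and RWPE1-ERG no region near it passed a q-value of 0.01. In RWPE1-ERG S96E a region of 7056 bases at chr21:42875131-42882186 spanned the start, with a fold enrichment of 4.76 and a −log10 q-value of 6.13, one of the 3413 of its list that passed 0.01. All of the 2 kb around the start was covered in RWPE1-ERG S96E, as it was for 19.9% of the protein-coding genes below 1 FPKM and 1.19% of those at 1 FPKM or above, and 31.6% was covered in RWPE1-Vector and 27.1% in RWPE1-ERG. Over the gene and 20 kb to either side the covered share was 19.4% in RWPE1-Vector, 17.6% in RWPE1-ERG and 36.1% in RWPE1-ERG S96E, above 89.1%, 91.8% and 92.4% of the genes of the table. The same start had ATAC regions in the 3 lines with ATAC-seq, and of the 1357 genes of low RNA with ATAC regions in all 3 lists, 19.2% had the start wholly inside H3K27me3 regions of RWPE1-ERG S96E. The ATAC and S96E libraries come from different lines.

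GATA3, expressed in the lines with RNA-seq, had the widest single region of any member, in RWPE1-ERG S96E, a line without RNA-seq here. The region stopped before the canonical start while covering earlier ones. In RWPE1-ERG S96E it spanned 21065 bases at chr10:8072551-8093615, with a fold enrichment of 4.71 and a −log10 q-value of 5.37, and it ended 3.04 kb upstream of the canonical start. It covered 100% of 3 of the 6 RefSeq promoter windows of GATA3, which begin at positions 8087046, 8091567 and 8092949. The 2 kb around the canonical start were 0% covered in all 3 lists. Further upstream RWPE1-ERG had regions of 6449 and 5097 bases, at fold enrichments of 3.12 and 2.63, over the same stretch, and RWPE1-Vector had many regions of 1486 bases or less. The share of the locus covered was 17.9%, 21.8% and 32.4% in RWPE1-Vector, in RWPE1-ERG and in RWPE1-ERG S96E. From RWPE1-Vector to RWPE1-ERG both the covered share and the GATA3 RNA were higher, the RNA by 3.35-fold.

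The other members had less. H3K27me3 regions covered 13.0%, 6.99% and 17.8% of the GATA2 locus in RWPE1-Vector, in RWPE1-ERG and in RWPE1-ERG S96E, and 10.3%, 7.57% and 10.9% of the ACPP locus, with 0% of the 2 kb around the ACPP start in any list. FOLH1 had 8.53%, 2.91% and 1.34%. FOXA1 had 6.30%, 0.456% and 0.596%, with 1 region in RWPE1-ERG and 1 in RWPE1-ERG S96E. At the chromosome Y copy of CD24 there were 0 regions in RWPE1-Vector and 1 in each of the others, at fold enrichments of 2.00 and 2.77. For comparison, the median share was 3.48%, 0.458% and 1.13% over genes at 1 FPKM or above, and 8.94%, 4.22% and 7.82% over genes below 0.1 FPKM in all lines. Of the 3 members with little RNA, TMPRSS2 alone had its start wholly covered in a list. The RWPE1-ERG S96E library was the deepest of the 3 and RWPE1-Vector had the longest list, and the part of depth and list length in these shares was not tested.

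**Figure D4:**
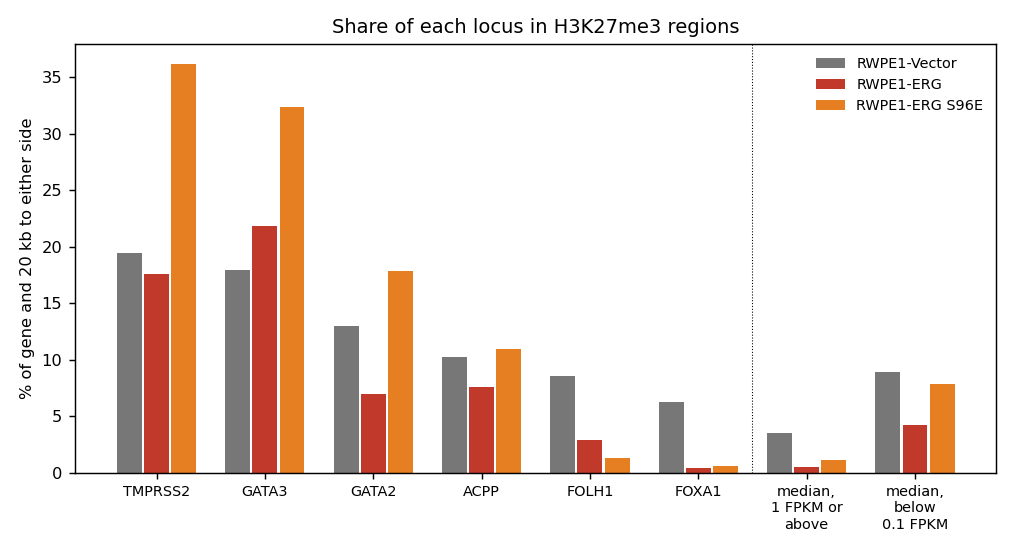
Percent of each locus (the gene and 20 kb to either side) covered by H3K27me3 regions in RWPE1-Vector, in RWPE1-ERG and in RWPE1-ERG S96E, 1 library a line, beside the medians over genes at 1 FPKM or above and over genes below 0.1 FPKM. TMPRSS2 and GATA3 reached 36.1% and 32.4% in RWPE1-ERG S96E, and FOXA1 was at 0.596%.

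ERG binding was read from ChIP-seq with an ERG antibody. In RWPE1-ERG+mAKT, where the list holds 9113 peaks, 0 of 7 members had an ERG peak within 20 kb, and 0 without CD24. The share over the genes of the table was 28.2%. The nearest peak was 38.7 kb from GATA3, 116 kb from TMPRSS2 and 189 kb from GATA2, and 312 kb or more from the other 4 members. The libraries of this list had 10306483 ChIP and 14670664 input reads, so a weak site may not have been detectable at this depth. GATA2, 2-fold higher in RWPE1-ERG+mAKT over RWPE1-Vector, had no ERG peak within 20 kb, as no member had. For CD24, also 2-fold higher, the window lay around the chromosome Y copy, and the list holds 9 peaks on that chromosome. ERG peaks around the RefSeq position of CD24 on chromosome 6 could not be read. ERG peaks of RWPE1-ERG cells were not analysed here, so GATA3 could not be read in the line where its RNA was highest.

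In VCaP the list holds 6143 peaks, of which 1730 passed a q-value of 0.01. With all peaks counted, 2 of 7 members had an ERG peak within 20 kb, and 2 without CD24. The share over the genes of the table was 19.5%. TMPRSS2 had 3 and FOLH1 had 1, the sites printed above. The strongest lay over an annotated transcript start inside TMPRSS2, at chr21:42878503-42878750, with a fold enrichment of 5.32, above 95.3% of the list, and a −log10 q-value of 3.92, and it was the only 1 of the 4 to pass 0.01. The others at TMPRSS2, at chr21:42857731-42858007 and chr21:42898428-42898630, had 2.96 and 3.09, with −log10 q-values of 0.346 and 0.271. The FOLH1 peak, at chr11:49216982-49217460 in an intron, had 3.81, with a −log10 q-value of 1.09. FOXA1 had its nearest peak 21.0 kb away, just outside the limit. None of the 4 VCaP sites overlapped an ATAC region in the 3 RWPE1 lists, though the RWPE1-ERG region at chr21:42878826-42880263 begins just beside the strongest. The strongest was 100% covered by H3K27me3 regions in all 3 RWPE1 lists. These regions had fold enrichments of 1.96 in RWPE1-Vector, 2.88 in RWPE1-ERG and 4.76 in RWPE1-ERG S96E, and only the last passed a q-value of 0.01. The FOLH1 site was 79.3% covered in RWPE1-Vector alone, by a region that did not pass 0.01, and the other 2 were not covered. VCaP has its own rearranged copy of TMPRSS2, and which copy the reads came from was not tested.

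**Figure D5:**
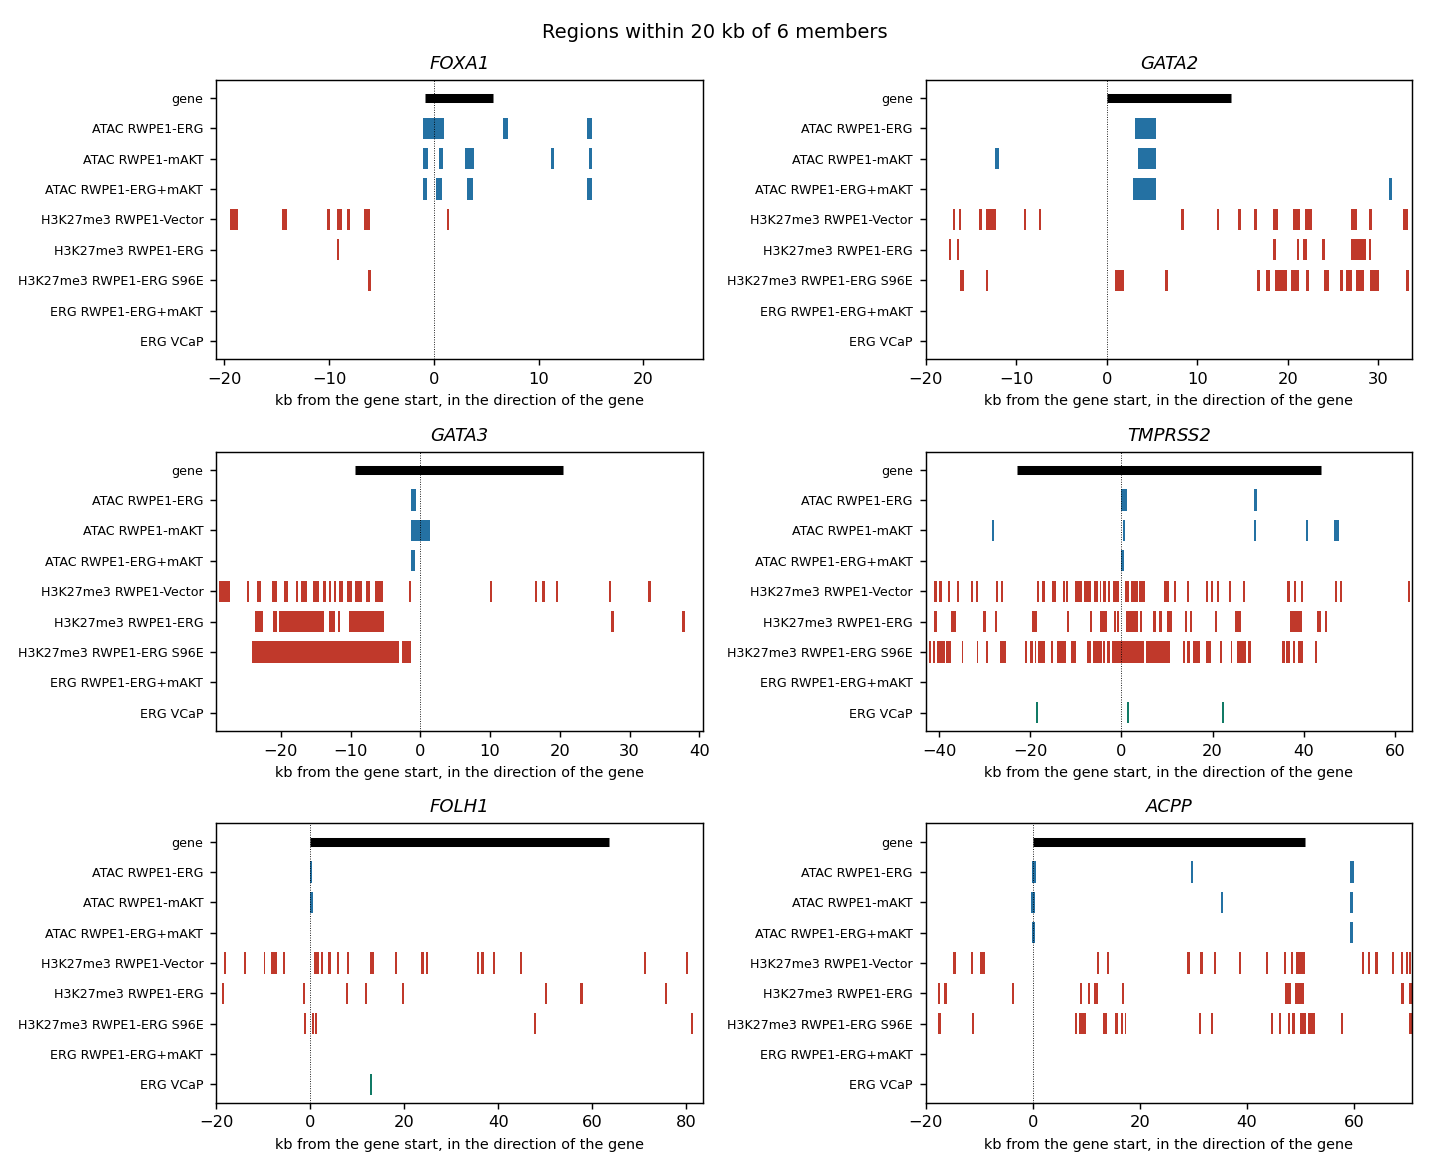
Regions within 20 kb of 6 members, by kb from the canonical gene start in the direction of the gene, for the 3 ATAC lists (blue), 3 H3K27me3 lists (red) and 2 ERG lists (green), with the annotated gene in black; very narrow regions are drawn wider to be seen. ATAC regions cluster at starts, the 21065-base H3K27me3 region of RWPE1-ERG S96E ends upstream of the GATA3 start, and ERG peaks appear in VCaP alone, at TMPRSS2 and FOLH1.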

How the data were processed

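RNA-seq values are FPKM from the gene table that the authors deposited, made with TopHat2 and Cuffdiff on hg19; the 3 libraries of a line were pooled into 1 value. Its columns of fold changes, test scores, p-values and q-values were not used. Peak lists are the deposited MACS2 output, called after Bowtie2 alignment to hg19, with a pileup signal, a fold enrichment (a ratio to input, or for ATAC-seq to the library itself), and a −log10 p-value and q-value per region; the authors pooled DNA of 3 ChIP experiments per library.

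Ratios are log2 of (FPKM + 1). Genes at 1 FPKM or above in any line were the background, and 2-fold was the limit; with 1 value a line no test was run. Regions count as near a member with an overlap of 1 base within 20 kb of the gene (GENCODE release 44 mapped to GRCh37, 23335 genes placed by name and 2920 by the table's locus). Headers of 4 lists give no read numbers. Genes named besides the 7 members are ERG and AKT1, the 3 nearest profiles per expressed member, at most 6 markers a list past 2-fold in any comparison, absent defining markers (chosen after their values were seen), FOLH1B, and the FOXA and GATA relatives. The members and lists were chosen with earlier results of these data known. The code was tested on simulated data before use, and ran on Python 3.11.15, pandas 2.3.3, numpy 2.4.6, matplotlib 3.10.9 and samtools 1.23.1. Alternatives covered the pseudocount, scaling, limit, background, window, q-value, fold enrichment and list length. Values of some marker genes are not reported here.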

Additional observations from a re-analysis of the deposited data

Results flagged for a closer look

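For 2 of the 4 members at 1 FPKM or above, a ratio turned its sign with the background it was measured in; each line has 1 pooled value, so the difference was not tested. FOXA1 had a log2 ratio for ERG of 0.42 without mAKT and −0.03 with it, and for mAKT of 0.01 without ERG and −0.43 with it, a difference of −0.45 either way; 20.4% of the genes tested had a larger difference in size. Recentred on the median gene, the FOXA1 ratios no longer turned sign: the ERG ratio was 0.43 without mAKT and 0.04 with it, and the mAKT ratio −0.0036 without ERG and −0.39 with it. GATA3 had a log2 ratio for mAKT of 0.35 without ERG and −0.56 with it, a difference of −0.91, and the ratios kept these signs after recentring (0.33 and −0.52).

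Lists outside the comparisons also held regions near members. The ERK2 ChIP of RWPE1-Vector had 8 peaks within 20 kb of 5 members, where 66.5% of the genes of the table had one, with fold enrichments of 2.38 to 3.08 and none past a q-value of 0.01: 3 at FOLH1, 2 at ACPP and 1 each at FOXA1, GATA2 and TMPRSS2. The ERK2 ChIP of RWPE1-ERG, in a list of 5721 peaks against 41276, had 0, where 22.8% of the genes had one. The list labelled VCaP Input, whose header gives LY294002 and ERG as its treatment file, had 13 regions near 4 members (32.7% of the genes): 5 at TMPRSS2, 5 at ACPP, 2 at FOLH1 and 1 at GATA2. At ACPP they include one over the start (4.53) and a stronger one centred at −11.9 kb, upstream (6.02). The list labelled VCaP+LY294002 ERG ChIP, whose region names read ATAC of RWPE1, had 16 regions near 6 members (86.7% of the genes), among them one at the ACPP start with a fold enrichment of 9.97. These lists were not compared with controls, and what the labels leave unsaid about them was not settled.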

How the results depend on the processing

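No paired analysis was possible because each line has 1 pooled RNA value and each list is 1 library; for the same reason no library could be left out. Counted in either direction, dropping the pseudocount moved all 5 of the 2-fold counts, to 2, 3, 4, 2 and 6 in the order of the report. Besides TMPRSS2, FOLH1 and ACPP, all below 1 FPKM, the added members were GATA2 (1.31) and CD24 (1.02) in RWPE1-ERG+mAKT over RWPE1-ERG and GATA3 (1.04) in RWPE1-ERG+mAKT over RWPE1-Vector. FOLH1 was then 2-fold lower in RWPE1-ERG over RWPE1-Vector (−1.15) and in RWPE1-ERG+mAKT over RWPE1-mAKT (−1.501) and over RWPE1-Vector (−1.14). A pseudocount of 0.1 gave 3 (GATA2, ACPP and CD24) in RWPE1-ERG+mAKT over RWPE1-ERG. Recentring on the median gene gave 1 (CD24) in that comparison and 1 in RWPE1-ERG+mAKT over RWPE1-mAKT. A 1.5-fold limit gave 1, 2, 2 and 1 in the first 4 comparisons. Leaving out CD24, chosen after seeing the data, gave 1 in RWPE1-ERG+mAKT over RWPE1-Vector. Of the region counts, a q-value of at most 0.01 left 0, 0 and 2 (GATA3 and TMPRSS2) for H3K27me3 in the Vector, ERG and S96E lists, and 1 (TMPRSS2) for ERG in VCaP. Equal numbers of ATAC regions left 4 in RWPE1-ERG. The other alternatives stayed within 1.5 times. The part of depth in the count of 0 ERG peaks near members in RWPE1-ERG+mAKT was not tested.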
